A study of Mus musculus with 8 samples.

Results

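The pancreatic acinar cell stores its digestive enzymes in zymogen granules and releases them by regulated exocytosis. To describe the genes of the granule and of its release in fatty acid ethyl ester–induced severe acute pancreatitis (FAEE-SAP), 10 genes were picked by name out of 48709 in the RNA-Seq of whole mouse pancreas: *Zg16*, *Sycn*, *Gp2*, *Cuzd1*, *Tmed6*, *Rab3d*, *Rab27b*, *Vamp8*, *Stx3*, and *Stxbp2*. Each gene was found once in all 8 libraries. The libraries came from 8-week-old male mice of 4 groups with 2 libraries each: WT mice given saline, cKO mice given saline, WT mice with FAEE-SAP, and cKO mice with FAEE-SAP. FAEE-SAP was induced with palmitoleic acid (POA) and ethanol, and pancreata were taken at 24 hours. The cKO mice were *Pfkfb3* fl/fl; *Pdx1*-Cre, in which Cre under the promoter of the pancreatic factor *Pdx1* removes exons of *Pfkfb3*, a regulator of glycolysis, throughout the pancreatic epithelium and not in acinar cells alone. The WT mice were bought from a supplier and were not described as littermates or as carriers of Cre, so genotype and origin of the mice cannot be told apart. The labels did not say that the 2 libraries of a group came from separate mice, and p-values measure the spread between these libraries.

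In the acinar cell, digestive enzymes pass from the ER through the Golgi into condensing vacuoles and are packed into granules that gather at the apical pole. ZG16 is a lectin-like protein of the granule matrix, syncollin (*Sycn*) is a small protein on the luminal face of the granule membrane that supports efficient exocytosis, GP2 is the main glycoprotein of the granule membrane, and CUZD1 is a granule protein with CUB and zona pellucida domains. TMED6 belongs to the p24 family of cargo receptors that cycle between ER and Golgi. RAB3D and RAB27B are small GTPases on the granule surface, and VAMP8 is a SNARE of the granule. Syntaxin 3 (*Stx3*) is a SNARE partner of VAMP8 in fusion, and STXBP2 (Munc18b) is the syntaxin-binding protein that works with syntaxin 3.

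RefSeq promoter windows were matched by symbol for 8 of the 10 genes, and the 250 bases before the start of *Tmed6*, *Sycn*, *Gp2*, and *Rab3d* are printed because *Tmed6* and *Sycn* were lower with FAEE-SAP in WT pancreas while *Gp2* and *Rab3d* did not pass the test. In the build GRCm38.p6 the windows are chr8:107065645-107065894 on the minus strand for *Tmed6*, chr7:28540635-28540884 on the plus strand for *Sycn*, chr7:119459273-119459522 on the minus strand for *Gp2*, and chr9:21918184-21918433 on the minus strand for *Rab3d*. Each sequence runs 5′ to 3′ along the gene's own strand, and capitals mark each CANNTG, the E-box, the core motif bound by basic helix-loop-helix factors such as the acinar factors MIST1 (*Bhlha15*) and PTF1A.
Tmed6: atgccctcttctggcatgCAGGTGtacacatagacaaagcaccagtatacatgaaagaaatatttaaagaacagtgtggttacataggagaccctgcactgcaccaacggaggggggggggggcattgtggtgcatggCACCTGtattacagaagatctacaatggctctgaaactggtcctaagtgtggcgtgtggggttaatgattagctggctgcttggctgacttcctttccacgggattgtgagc
Sycn: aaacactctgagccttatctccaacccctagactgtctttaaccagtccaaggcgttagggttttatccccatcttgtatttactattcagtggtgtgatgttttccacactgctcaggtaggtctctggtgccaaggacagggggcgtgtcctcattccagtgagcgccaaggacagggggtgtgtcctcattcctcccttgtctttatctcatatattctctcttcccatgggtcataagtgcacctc
Gp2: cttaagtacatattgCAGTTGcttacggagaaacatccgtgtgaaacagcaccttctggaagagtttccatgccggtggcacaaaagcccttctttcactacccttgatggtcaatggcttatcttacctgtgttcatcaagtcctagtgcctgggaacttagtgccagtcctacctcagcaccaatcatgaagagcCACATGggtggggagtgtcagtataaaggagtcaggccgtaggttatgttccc
Rab3d: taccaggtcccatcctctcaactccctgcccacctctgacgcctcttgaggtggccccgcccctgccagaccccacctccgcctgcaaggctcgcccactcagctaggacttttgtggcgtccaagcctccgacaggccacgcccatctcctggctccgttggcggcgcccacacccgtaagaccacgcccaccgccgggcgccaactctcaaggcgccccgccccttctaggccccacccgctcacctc
Positions are counted from the gene's start. The window of *Tmed6* held a first E-box, CAGGTG, whose first base is at −232, and a second, CACCTG, whose first base is at −112. The window of *Gp2* held a first E-box, CAGTTG, whose first base is at −235, and a second, CACATG, whose first base is at −53. The windows of *Sycn* and *Rab3d* held no E-box. Of all 32851 windows of the same length, 66.2% held an E-box, as did 5 of the 8 windows of these genes. More specific E-boxes were searched on both strands, and each is a case of the general one. The form CATATG was in 3.46% of all windows and in 0 of the 8. The form CAGCTG was in 13.0% of all windows and in 1 of the 8, that of *Cuzd1*. The form CACCTG or its reverse complement, CAGGTG, was in 17.2% of all windows and in 2 of the 8, those of *Stxbp2* and *Tmed6*. In the gene annotation, 4 of the 10 genes, *Zg16*, *Sycn*, *Gp2*, and *Cuzd1*, lie on chromosome 7.

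Values were deposited as RPKM, reads of a gene divided by its exon length and by library size, so that levels can be compared between genes. Library totals worked out from low values were 22.8 to 37.6 M reads. In each comparison the libraries were scaled to a common median ratio (scaled RPKM), and the factors over all 8 libraries ran from 0.618 in cKO saline to 2.01 in WT FAEE-SAP. The scaling therefore decides much of any change in WT, and without it the median of all genes tested shifted by 1.24 on the log2 scale with FAEE-SAP in WT and by 0.57 in cKO. *Pfkfb3* itself was at 1.71 and 1.70 scaled RPKM in WT and 0.885 and 2.11 in cKO with saline, and 1.86 and 3.23 in WT and 1.74 and 2.84 in cKO with FAEE-SAP. The genotypes overlapped under both treatments, and a value over the whole gene does not show the loss of its floxed exons. The acinar identity of the tissue was plain, since 6 acinar markers (*Cpa1*, *Cel*, *Pnlip*, *Ctrb1*, *Cela1*, *Cpb1*) summed to 175450 to 204721 scaled RPKM in WT saline. In whole pancreas, fewer acinar cells and less RNA per acinar cell cannot be told apart.

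In healthy WT pancreas the levels of the 10 genes ran from a mean of 0.703 ± 0.331 scaled RPKM for *Stx3* to 6517 ± 1052 for *Zg16* (SD, n = 2). The granule content and membrane genes stood highest, with *Sycn* at 5010 ± 299, *Gp2* at 3104 ± 776, and *Cuzd1* at 498 ± 133. *Tmed6* was at 201 ± 6.56. The fusion machinery was far lower, with *Rab3d* at 20.9 ± 1.90, *Vamp8* at 16.2 ± 1.18, *Stxbp2* at 5.22 ± 0.147, and *Rab27b* at 1.15 ± 0.391. Together the 10 genes made up 1.81% to 2.18% of the summed RPKM of a library, and the lowest shares were in the WT FAEE-SAP libraries.

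**Figure D1:**
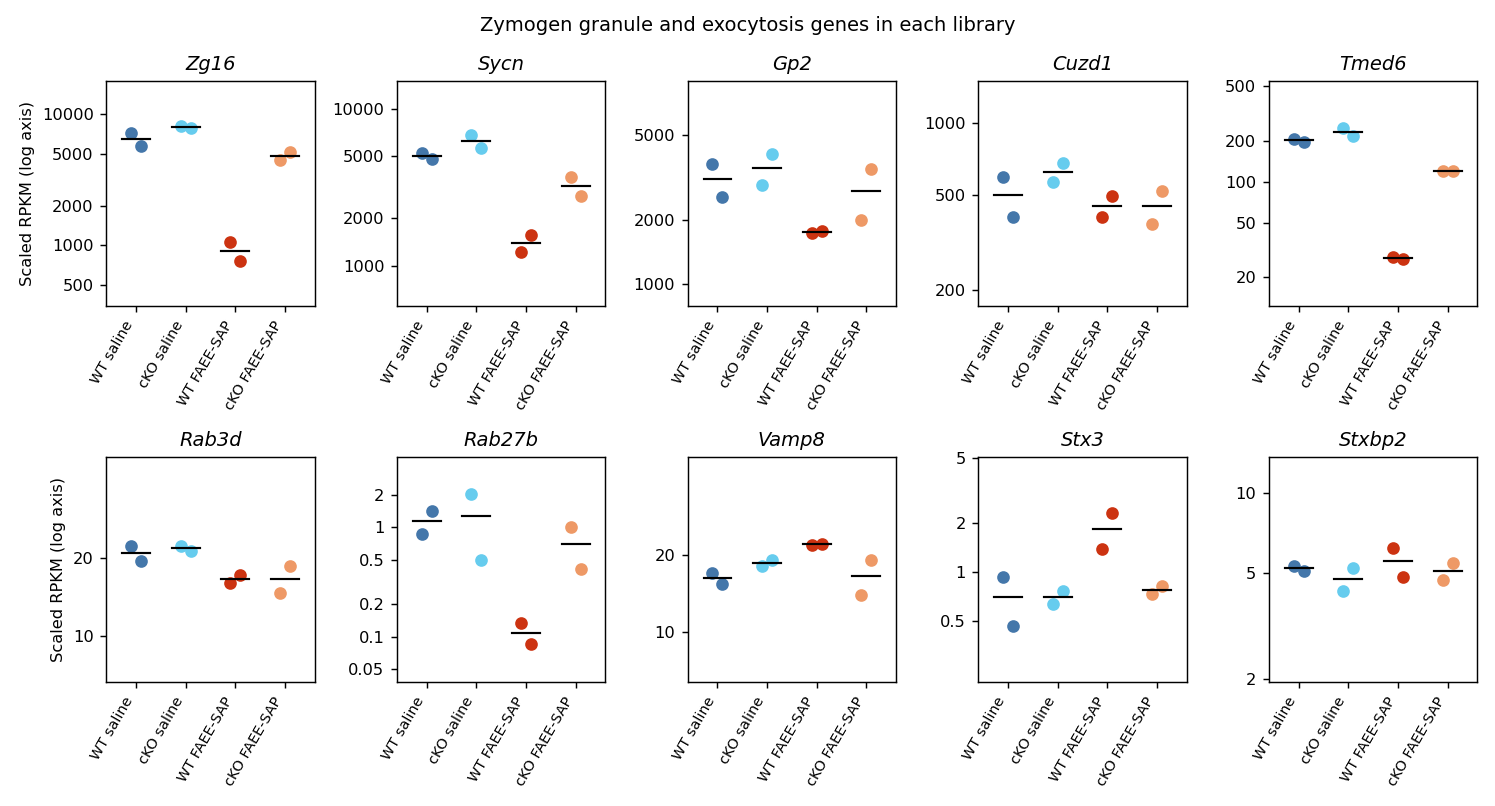
Level of each of the 10 genes in every library, as scaled RPKM on a log axis, in 4 groups of 2 libraries; points are libraries and bars are group means. *Zg16*, *Sycn*, *Tmed6*, and *Rab27b* sit lowest in WT FAEE-SAP, at 909, 1387, 27.5, and 0.108 on average. Their means in cKO FAEE-SAP lie between those of the saline groups and of WT FAEE-SAP, although for *Rab27b* the cKO FAEE-SAP libraries overlap the saline libraries.

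FAEE-SAP in WT pancreas was first compared with saline. Of the 10 genes, 4 fell, *Zg16*, *Sycn*, *Tmed6*, and *Rab27b*, and 0 rose. *Rab27b* reached the RPKM minimum in the WT saline libraries only, where it was higher, so the filter on low values favored its call, and of the other 9 genes 3 fell. Of 10894 genes tested, 6.93% were called, 3.86% as lower and 3.08% as higher, by the same rule, which asks for 2-fold or more and an adjusted p under 0.05 (limma, Benjamini-Hochberg adjustment over all genes tested). The median log2 fold change was −0.57 for the 10 genes and 0.02 for all genes. The libraries of the 2 groups did not overlap for 8 of the 10 genes, and for 58.8% of all genes. On the values as deposited, 3 of the 10 were called lower, against 0.789% of all genes, and 4 were called higher, against 65.9%. Of all genes, 66.7% were called on these values.

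Among the content and membrane genes, *Zg16* showed the steepest change. *Zg16* was at 7261 and 5773 scaled RPKM in WT saline and at 1059 and 758 in WT FAEE-SAP. Both diseased libraries lay far under both controls, at 13.9% of the control mean. The log2 fold change of *Zg16* was −2.86 (SE 0.21, 95% CI −3.39 to −2.33, limma adjusted p = 0.00337). *Sycn* was at 5222 and 4799 in WT saline and at 1213 and 1561 in WT FAEE-SAP, which left 27.7% of the control mean. The groups did not overlap, and the log2 fold change was −1.87 (SE 0.17, 95% CI −2.29 to −1.45, limma adjusted p = 0.00530). *Gp2* was at 3652 and 2555 in WT saline and at 1732 and 1770 in WT FAEE-SAP. Its groups did not overlap either, but the log2 fold change of −0.81 (95% CI −1.30 to −0.32) did not pass the test (limma adjusted p = 0.0661). With 1 library left out it ran from −1.09 without the second WT saline library (limma adjusted p = 0.0363), the lower of the controls, to −0.55 without the first (limma adjusted p = 0.212). *Cuzd1* was at 592 and 404 in WT saline and at 406 and 497 in WT FAEE-SAP. These ranges overlapped, and the interval of the log2 fold change of −0.13 ran from −0.69 to 0.43. Of these 4 genes of the same granule, 2 thus fell and 2 did not pass the test.

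*Tmed6* gave the smallest adjusted p of the 10. It was at 205 and 196 scaled RPKM in WT saline and at 28 and 26.9 in WT FAEE-SAP, 13.7% of the control mean. The libraries of each group lay close together and the groups far apart, with a log2 fold change of −2.87 (SE 0.15, 95% CI −3.23 to −2.51, limma adjusted p = 0.00184). Of the other 10 members of the p24 family, all 10 passed the filter on low values, 1 fell, 0 rose, against 3.86% and 3.08% of all genes, and the median log2 fold change was −0.24. The member that fell was *Tmed11*, which was at 132 and 98.2 in WT saline and at 10.4 and 12.1 in WT FAEE-SAP (log2 fold change −3.34, SE 0.21, limma adjusted p = 0.00257). On the values as deposited, 5 of the family were called higher, against 65.9% of all genes, and *Tmed11* alone was called lower, against 0.789%.

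Of the Rab genes, *Rab27b* was called and *Rab3d* was not. *Rab27b* was scarce in every group, at 0.870 and 1.42 scaled RPKM in WT saline and 0.132 and 0.0846 in WT FAEE-SAP. These levels rested on about 190 and 357 reads in the controls and about 64.7 and 56.7 reads with FAEE-SAP, as worked out from RPKM, exon length, and library total. *Rab27b* was lower in both diseased libraries, with a log2 fold change of −2.68 (SE 0.34, 95% CI −3.51 to −1.85, limma adjusted p = 0.0127). This p is not free of the filter, which the gene passed through its high group alone. Without any filter the log2 fold change was −2.63 (limma adjusted p = 0.0474). The adjusted p rose above 0.05 without either WT FAEE-SAP library, at a log2 fold change of −2.74 without the first (limma adjusted p = 0.0725) and −2.40 without the second (limma adjusted p = 0.141), and without either WT saline library *Rab27b* did not pass the filter on low values. *Rab3d* was at 22.2 and 19.5 in WT saline and 16.1 and 17.1 in WT FAEE-SAP. The groups did not overlap, yet the log2 fold change of −0.33 (95% CI −0.75 to 0.09) did not pass the test (limma adjusted p = 0.269).

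Of 27 other Rabs, Rab effectors, and calcium sensors of granule release, 18 passed the filter, 4 fell, against 3.86% of all genes, and 0 rose, against 3.08%, with a median log2 fold change of −0.35. The largest changes were those of *Myrip*, an effector that links RAB27 to myosin, *Rab3a*, and *Rab26*, a Rab of secretory granules. *Myrip* was at 2.33 and 1.93 scaled RPKM in WT saline and at 0.183 and 0.312 in WT FAEE-SAP (log2 fold change −2.78, limma adjusted p = 0.00853). The log2 fold change was −1.65 for *Rab3a* (limma adjusted p = 0.0417) and −1.63 for *Rab26* (limma adjusted p = 0.0153). On the values as deposited, *Myrip* was still called lower (log2 fold change −1.63), *Rab3a* and *Rab26* were not, and 9 of the 18 genes were called higher, against 65.9% of all genes.

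None of the SNARE genes was called. *Vamp8* was at 17.1 and 15.4 scaled RPKM in WT saline and at 22.0 and 22.2 in WT FAEE-SAP. Both diseased libraries were above both controls, and the log2 fold change of 0.44 (95% CI 0.03 to 0.84) did not pass the test (limma adjusted p = 0.156). *Stx3* was at 0.937 and 0.468 in WT saline and at 1.38 and 2.33 in WT FAEE-SAP, on 62.8 to 834 reads. *Stx3* was the gene with the largest positive value of the 10, a log2 fold change of 1.32 with a wide interval (95% CI 0.33 to 2.31), which did not pass the test (limma adjusted p = 0.102). *Stxbp2* was at 5.32 and 5.11 in WT saline and at 6.25 and 4.86 in WT FAEE-SAP, and these overlapped (log2 fold change 0.07, 95% CI −0.44 to 0.58). Of 16 other genes of the SNARE machinery, 14 were found by symbol, 13 passed the filter, and 0 were called, with a median log2 fold change of 0.10 and 1 gene at an unadjusted p under 0.05. As deposited, 11 of these 13 were called higher, as were 65.9% of all genes, and the median was 1.31 for the list and 1.24 for all genes.

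**Figure D2:**
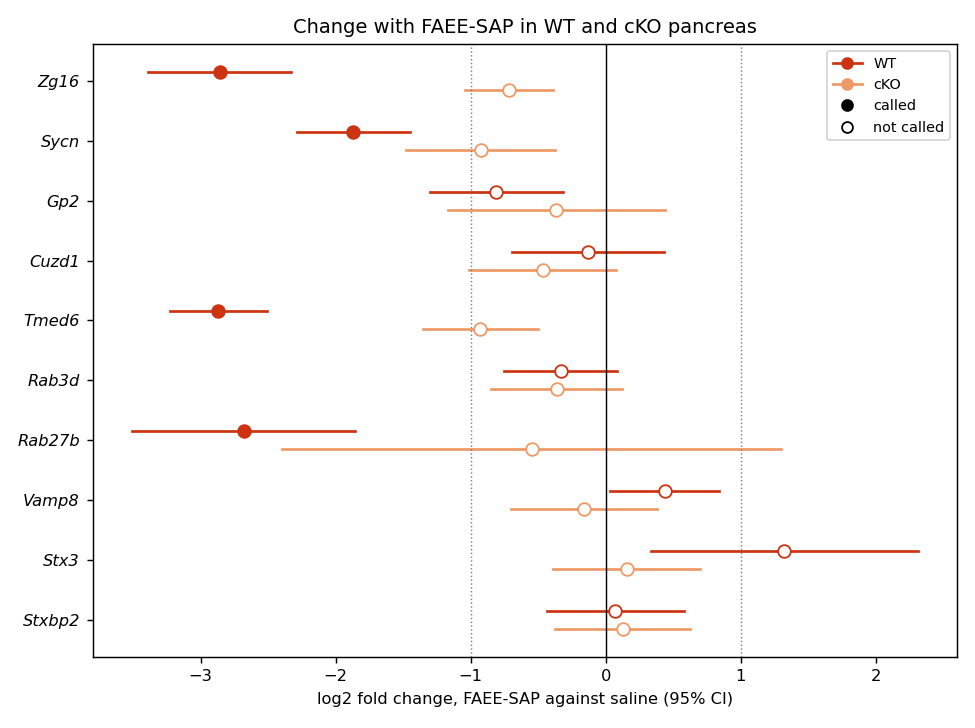
log2 fold change of FAEE-SAP against saline for each gene, in WT (dark) and cKO (light), with 95% CI; filled points were called and dotted lines mark 2-fold. In WT, *Zg16*, *Sycn*, *Tmed6*, and *Rab27b* lie between −1.87 and −2.87, *Rab27b* having passed the filter on low values through WT saline alone. In cKO the 10 points lie between −0.93 and 0.16.

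How far these values rest on the scaling was examined. With the RPKM as deposited, *Zg16*, *Tmed6*, and *Rab27b* were still called lower in WT FAEE-SAP, with log2 fold changes of −1.54, −1.55, and −1.67, although *Rab27b* passed the filter through WT saline alone there too. *Sycn* was then at −0.55 and no longer met the 2-fold minimum, and with quantile normalization it was at −0.73. *Cuzd1*, *Vamp8*, *Stx3*, and *Stxbp2* were called higher on the values as deposited, with log2 fold changes of 1.19, 1.76, 2.54, and 1.38. *Gp2* and *Rab3d* changed sign, to 0.51 and 0.99, and were not called.

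**Figure D3:**
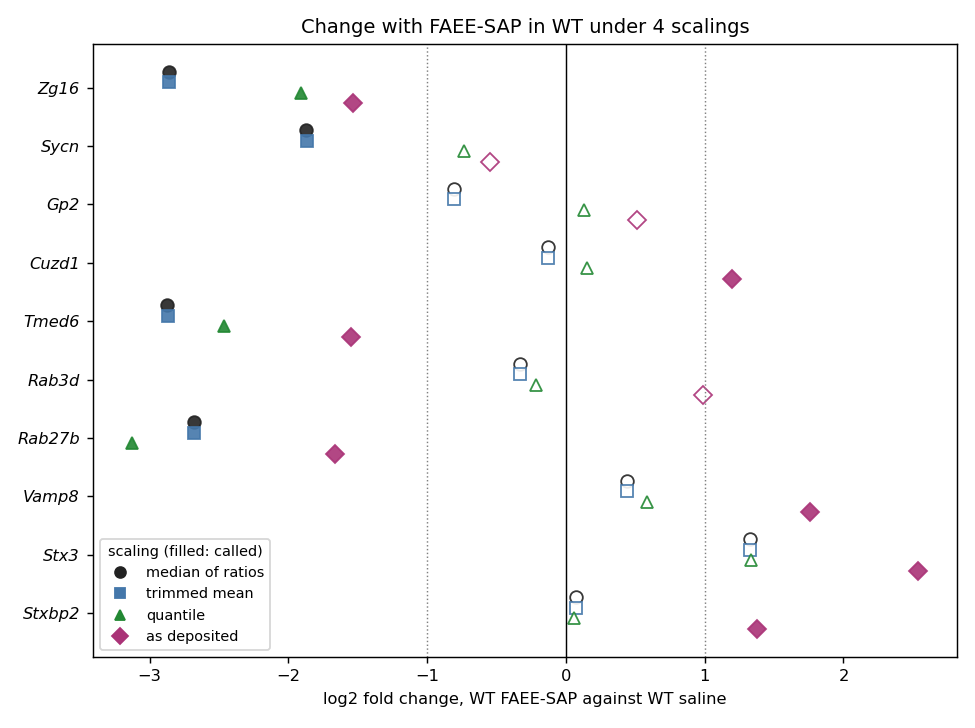
log2 fold change of WT FAEE-SAP against WT saline for each gene under 4 ways of scaling the libraries; filled points were called and dotted lines mark 2-fold. *Zg16*, *Tmed6*, and *Rab27b* stay below −1.5 under all 4, *Rab27b* having passed the filter on low values through WT saline alone, whereas *Gp2*, *Cuzd1*, and *Rab3d* lie below 0 with median scaling and above 0 as deposited.

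A ratio of 2 genes within the same library does not depend on the scaling. *Zg16* per *Gp2* came to 1.99 and 2.26 in WT and 2.80 and 1.94 in cKO with saline, and 0.611 and 0.428 in WT and 2.23 and 1.5 in cKO with FAEE-SAP. The granule matrix gene was thus more abundant than the granule membrane gene in 6 libraries and less abundant in both WT FAEE-SAP libraries. *Sycn* per *Cuzd1* came to 8.82 and 11.9 in WT and 12 and 8.26 in cKO with saline, and 2.99 and 3.14 in WT and 9.79 and 5.36 in cKO with FAEE-SAP. *Tmed6* per *Rab3d* came to 9.24 and 10.04 in WT and 11.1 and 10.2 in cKO with saline, and 1.74 and 1.57 in WT and 8.12 and 6.42 in cKO with FAEE-SAP. In all 3 ratios both WT FAEE-SAP libraries were the lowest of the 8. The pairs were set after the values were known, so the ratios are a description and were not tested.

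**Figure D4:**
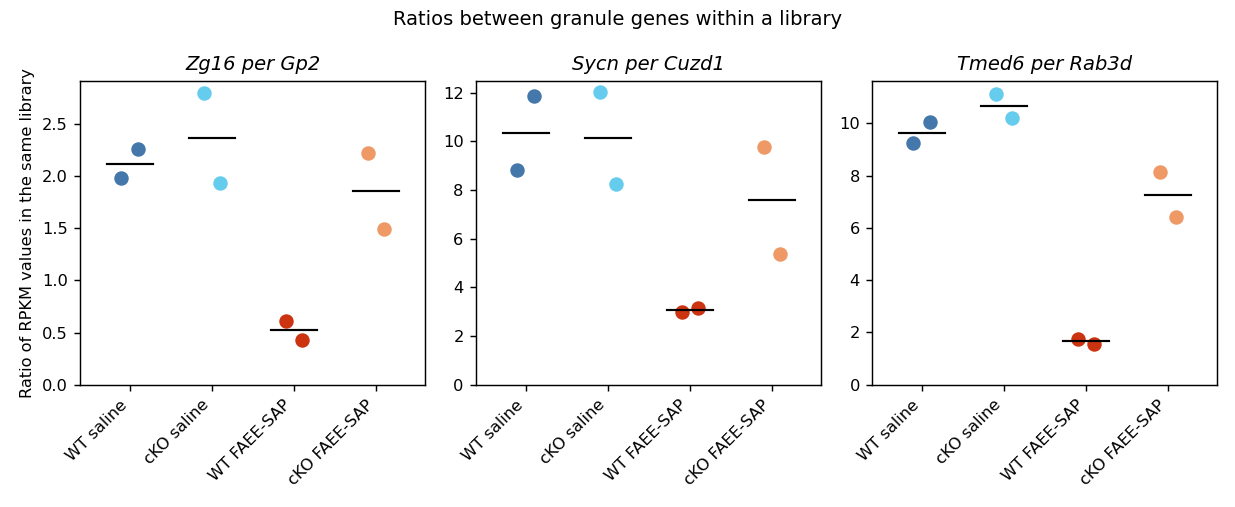
Ratio of the RPKM of 2 granule genes in the same library, for 3 pairs and 4 groups; points are libraries, bars are group means, and the axes start at 0. The WT FAEE-SAP libraries are the lowest in each panel, for example 1.57 and 1.74 for *Tmed6* per *Rab3d* against 6.42 or more in the other 6.

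The acinar markers moved with these genes. Their sum was 56825 to 58937 scaled RPKM in WT FAEE-SAP, against 175450 to 204721 in WT saline, 237160 to 241464 in cKO saline, and 140708 to 156611 in cKO FAEE-SAP, and 6 of 6 markers fell with FAEE-SAP in WT. As deposited 6 of 6 were lower and 1 was called, and with quantile normalization 0 were called. Quantile normalization matches values by rank and gave *Ctrb1* a log2 fold change of 0. It therefore cannot show a shared fall of the most abundant genes. Relative to this sum, *Tmed6*, *Zg16*, *Sycn*, and *Rab27b* had a lower mean in WT FAEE-SAP than in WT saline, and the other 6 genes had a higher one. *Tmed6* was at 10.02 and 11.2 RPKM per 10000 RPKM of acinar markers in WT saline and at 4.93 and 4.57 in WT FAEE-SAP. *Sycn* was at 255 and 274 in WT saline and at 213 and 265 in WT FAEE-SAP, and these ranges overlapped. Among leukocyte markers, 8 of 9 were found and 2 rose in WT, *S100a8* and *S100a9*, which mark neutrophils. *S100a8* reached the RPKM minimum in the WT FAEE-SAP libraries only. The 8 summed to 52.4 to 70.8 scaled RPKM in WT saline, 60.8 to 69.6 in cKO saline, 94.8 to 128 in WT FAEE-SAP, and 72.6 to 95.2 in cKO FAEE-SAP, and none was at 0 in all libraries. In WT the sum moved mostly with *S100a8* and *S100a9*, the latter at 0.652 and 0.976 with saline and 33.3 and 29.3 with FAEE-SAP. The other leukocyte markers had log2 fold changes in WT from −0.61 for *Cd3e* to 0.70 for *Cd68*, and none of them was called. The ductal marker sum was 8.65 to 10.7 in WT saline and 13.2 to 14.0 in WT FAEE-SAP, and the islet sum was 237 to 281 and 142 to 197. All 4 islet markers were below 0 with median scaling, and all 4 were above 0 as deposited. *Gcg* lay at the 2-fold minimum with median scaling (log2 fold change −1.0, limma adjusted p = 0.0344) and was not called under the other 3 scalings. The part of these cell types in the results was not tested.

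Other genes of the granule and the acinar transcription factors were counted from lists. Of 8 other granule membrane and content genes, 2 fell with FAEE-SAP in WT and 0 rose, against 3.86% and 3.08% of all genes, with a median log2 fold change of −0.22. As deposited 4 of the 8 were called higher, against 65.9% of all genes, and 0 lower, with a median of 1.08, and with quantile normalization 1 was called higher and 1 lower, with a median of 0.26. *Spink1*, the trypsin inhibitor packed with the enzymes, was at 1509 and 1215 scaled RPKM in WT saline and at 465 and 417 in WT FAEE-SAP (log2 fold change −1.63, limma adjusted p = 0.00779), and was not called as deposited (−0.30, limma adjusted p = 0.106). The value of *Klk1*, a kallikrein of the granule, was −1.01 (limma adjusted p = 0.0236) and turned positive, at 0.65, with quantile normalization and at 0.31 as deposited. Of 6 acinar transcription factors, 4 fell and 1 rose, against the same shares of all genes. *Bhlha15*, whose product MIST1 is known to control granule genes such as *Rab3d* and *Rab26*, was at 28.4 and 30.1 in WT saline and at 3.83 and 1.72 in WT FAEE-SAP (log2 fold change −3.47, limma adjusted p = 0.00853). The others that fell were *Rbpjl* (−2.13), *Ptf1a* (−1.81), and *Gata4* (−1.48), all of which passed with quantile normalization and none as deposited. *Xbp1*, a factor of the unfolded protein response and of secretory cells, rose (log2 fold change 1.39).

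**Figure D5:**
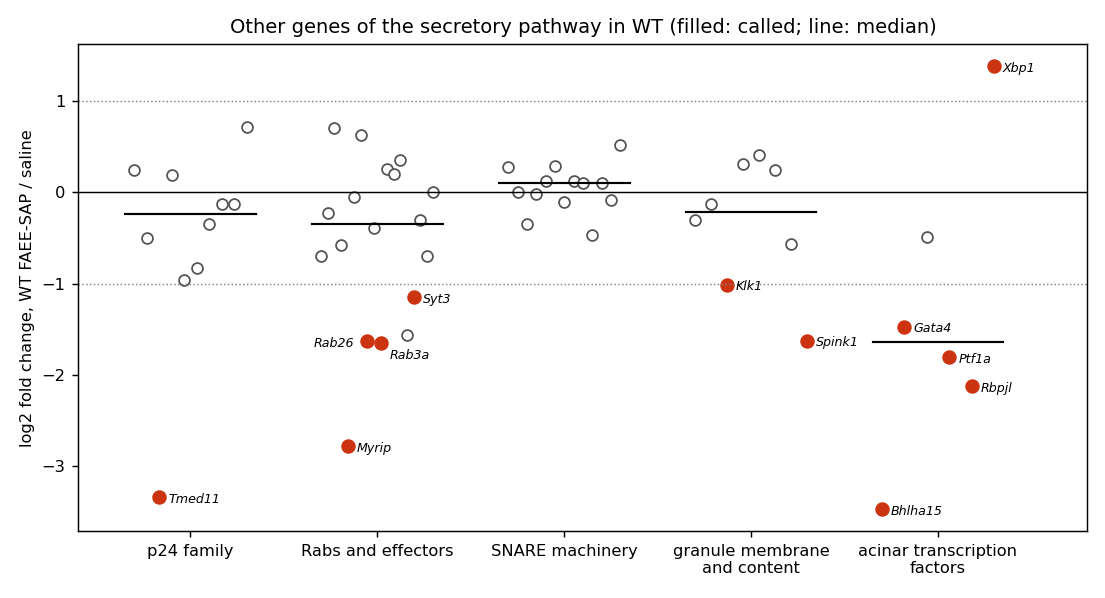
log2 fold change of WT FAEE-SAP against WT saline for the genes of 5 lists that passed the filter on low values; filled points were called and named, lines are medians, and dotted lines mark 2-fold. None of the 13 SNARE genes is called, while *Tmed11* and *Bhlha15*, at −3.34 and −3.47, lie lowest.

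The same treatment was then compared with saline in cKO pancreas. None of the 10 genes was called in cKO, where 5 of 9423 genes tested were, 0.0531%, all higher (limma, Benjamini-Hochberg). At an unadjusted p under 0.05 there were 3 of the 10 genes and 888 of all genes. The median log2 fold change of the 10 was −0.42, and the libraries did not overlap for 5 of the 10 genes and for 43.2% of all. The 3 genes were *Tmed6*, *Zg16*, and *Sycn*. *Tmed6* was at 248.6 and 216.8 scaled RPKM in cKO saline and at 119 and 120 in cKO FAEE-SAP. All diseased values were lower, at 51.3% of the control mean, with a log2 fold change of −0.93 (95% CI −1.35 to −0.50, limma adjusted p = 0.269). *Zg16* was at 8184 and 7926 in cKO saline and at 4462 and 5174 in cKO FAEE-SAP, with a log2 fold change of −0.72 (95% CI −1.04 to −0.39, limma adjusted p = 0.269). *Sycn* was at 6836 and 5638 in cKO saline and at 3680 and 2780 in cKO FAEE-SAP, with a log2 fold change of −0.93 (95% CI −1.48 to −0.38, limma adjusted p = 0.384). These groups did not overlap for any of the 3.

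The other 7 genes had log2 fold changes from −0.55 to 0.16 in this comparison. *Gp2* was at 2925 and 4091 in cKO saline and at 2001 and 3459 in cKO FAEE-SAP, and *Cuzd1* was at 568 and 682 against 376 and 518. *Rab27b* was at 2.02 and 0.50 in cKO saline and at 1.0 and 0.412 in cKO FAEE-SAP, so that the 2 replicates of a group differed more than the groups did. Its log2 fold change of −0.55 had an interval from −2.39 to 1.29. *Rab3d* was at 22.3 and 21.3 against 14.7 and 18.6, *Vamp8* at 18.1 and 19.2 against 14.0 and 19.1, *Stx3* at 0.638 and 0.767 against 0.731 and 0.828, and *Stxbp2* at 4.30 and 5.24 against 4.71 and 5.49. Of the p24, Rab, SNARE, granule, and transcription factor lists, 0 genes were called in cKO.

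Whether the genotype mattered without disease was asked in the saline groups. None of the 10 genes was called, as was none of 8715 genes tested, 0% (limma, Benjamini-Hochberg). At an unadjusted p under 0.05 there were 0 of the 10 and 187 of all genes. The log2 fold changes ran from −0.16 for *Stxbp2* to 0.32 for *Cuzd1*, 8 of the 10 were above 0, and the limma adjusted p was 0.999 for each. The libraries did not overlap for 5 of the 10 genes, and for 27.9% of all genes. The intervals limit how far the genotypes could differ: for *Zg16* the log2 fold change was 0.29 (95% CI −0.10 to 0.67), for *Sycn* 0.28 (95% CI −0.11 to 0.67), and for *Tmed6* 0.18 (95% CI −0.23 to 0.60). For *Rab27b* the interval was too wide to say more, from −1.75 to 1.52.

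With FAEE-SAP, cKO pancreas was compared with WT pancreas. *Zg16* and *Tmed6* were higher in cKO, and 2 of the 9 genes tested were thus called, both higher, against 1.27% of 11008 genes called, 0.863% as higher and 0.409% as lower (limma, Benjamini-Hochberg). *Rab27b* reached the RPKM minimum in 1 library only and was not tested. *Zg16*, at 4462 and 5174 scaled RPKM in cKO against 1059 and 758 in WT, had a log2 fold change of 2.41 (SE 0.21, 95% CI 1.91 to 2.92, limma adjusted p = 0.0157), and its mean was 5.30 times that of WT. *Tmed6*, at 119 and 120 in cKO against 28 and 26.9 in WT, had a log2 fold change of 2.11 (SE 0.16, 95% CI 1.71 to 2.51, limma adjusted p = 0.0152), and its mean was 4.35 times that of WT. The groups did not overlap for 6 of the 9 genes, and for 51.8% of all genes. Both calls held under every scaling tried. With 1 library left out the log2 fold change ran from 2.16 to 2.63 for *Zg16* and from 2.07 to 2.14 for *Tmed6*. The calls were lost without the first WT FAEE-SAP library (limma adjusted p = 0.0771 for *Zg16* and 0.0823 for *Tmed6*) and without the second (0.108 and 0.131), where 1 library stands for its group and 0 of all genes were called. Without a filter on low values they were not called either (0.131 and 0.0762), nor was any other gene.

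*Sycn* stood next in order. It was at 3680 and 2780 in cKO FAEE-SAP against 1213 and 1561 in WT FAEE-SAP, with both cKO libraries above both WT libraries. Its log2 fold change of 1.21 (SE 0.21, 95% CI 0.69 to 1.72) did not pass the test (limma adjusted p = 0.0749), but passed in a model of all 8 libraries (limma adjusted p = 0.0302), and was 0.07 with quantile normalization. *Gp2* was at 2001 and 3459 in cKO against 1732 and 1770 in WT (log2 fold change 0.58, 95% CI −0.10 to 1.25). *Rab27b*, at 1.0 and 0.412 in cKO against 0.132 and 0.0846 in WT, did not overlap either. For *Vamp8* and *Stx3* the order was turned around, with both cKO libraries under both WT libraries. The log2 fold change was −0.44 for *Vamp8* (95% CI −0.99 to 0.10, limma adjusted p = 0.340) and −1.15 for *Stx3* (95% CI −1.92 to −0.37, limma adjusted p = 0.150). *Cuzd1* (−0.03, 95% CI −0.58 to 0.51), *Rab3d* (−0.01, 95% CI −0.53 to 0.50), and *Stxbp2* (−0.13, 95% CI −0.69 to 0.44) overlapped between the genotypes. As deposited, *Vamp8*, *Stx3*, and *Stxbp2* were called lower in cKO (log2 fold changes −1.40, −2.04, and −1.07). On those values 40.2% of all genes were called, 39.6% as lower and 0.663% as higher, and the median of all genes was −0.91.

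Among the lists, *Tmed11* of the p24 family was higher in cKO, at 67.4 and 74.7 scaled RPKM against 10.4 and 12.1 (log2 fold change 2.64, limma adjusted p = 0.0152). *Spink1* was at 1343 and 1004 against 465 and 417 (1.39, limma adjusted p = 0.0402), and was not called as deposited (0.43) or with quantile normalization (1.02). *Bhlha15* was at 20.9 and 19.1 against 3.83 and 1.72 (2.91, limma adjusted p = 0.0350), and was not called with quantile normalization (2.87, limma adjusted p = 0.0523). Of 13 SNARE genes and 17 Rabs and effectors tested, 0 were called. As deposited, where 39.6% of all genes were called lower, 4 of the SNARE genes were called lower, and 7 of the Rabs and effectors were called lower and 1 higher. Of the acinar markers, 4 of 6 were called higher in cKO, 0 as deposited and 0 with quantile normalization, which again put *Ctrb1* at 0 by rank. The islet markers, 4 of 4, were above 0 with median scaling and 2 of 4 as deposited, and their sum was 362 to 381 scaled RPKM in cKO FAEE-SAP, against 142 to 197 in WT FAEE-SAP and 264 to 327 in cKO saline. Of these, *Gcg*, which encodes glucagon, was called higher (log2 fold change 1.68, limma adjusted p = 0.0272), and was not called as deposited (0.72). Of the 8 leukocyte markers, *S100a8* was called lower in cKO (−2.32, limma adjusted p = 0.0302), under every scaling tried, and the other 7 were not called with median scaling. The part of these cell types in the results was not tested here either.

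The change with FAEE-SAP was compared between the genotypes in 1 model of all 8 libraries. The interaction was called for *Tmed6* alone of the 10 genes, and for 0.0719% of 11133 genes, 0.0449% with a positive and 0.0269% with a negative difference (limma, Benjamini-Hochberg). With FAEE-SAP *Tmed6* stood at 13.7% of its saline mean in WT and at 51.3% in cKO, and the difference of the log2 fold changes, cKO minus WT, was 1.91 (SE 0.20, 95% CI 1.45 to 2.36, limma adjusted p = 0.0413). This call did not hold when any 1 of the 8 libraries was left out, with a value of 1.80 to 2.0 and a limma adjusted p of 0.0709 to 0.197. *Zg16*, at 13.9% of its saline mean in WT and 59.8% in cKO, had a difference of 2.11 (95% CI 1.45 to 2.77, limma adjusted p = 0.0740), and was called as deposited, with quantile normalization, with an RPKM minimum of 2, and with a pseudocount of 1. *Sycn* stood at 27.7% in WT and 51.8% in cKO, a difference of 0.91 (95% CI 0.24 to 1.57, limma adjusted p = 0.284). *Rab27b* stood at 9.44% and 56.0%, and its difference of 1.97 had an interval from −0.09 to 4.02 (limma adjusted p = 0.420). The differences for *Vamp8* (−0.63, 95% CI −1.25 to −0.02) and *Stx3* (−1.17, 95% CI −2.32 to −0.02) were negative, at limma adjusted p-values of 0.387 and 0.391. Of the 5 lists, 0 genes were called in the interaction, whereas as deposited 1 Rab or effector gene was called with a positive and 1 with a negative difference, and 1 p24 gene with a positive one, and with quantile normalization 1 p24 gene was called with a positive difference. At an unadjusted p under 0.05 and with no fold minimum there were 5 of the 10 genes and 1398 of all genes. As deposited, 4 of the 10 were called, *Zg16* and *Tmed6* with a positive and *Vamp8* and *Stx3* with a negative difference, where 7.11% of all genes were called, 0.189% with a positive and 6.92% with a negative difference.

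Over the 8 libraries the genes fell into a few like patterns. *Zg16* and *Tmed6* were most like each other, with a Pearson r of 0.989 on log2 values, and *Sycn* was most like *Tmed6* (r = 0.975). *Rab27b* was most like *Sycn* (0.887), *Cuzd1* was most like *Rab3d* (0.802), and *Vamp8* and *Stx3* were most like each other (0.751). *Stx3* was the gene least like *Zg16* (−0.866). The genes outside the 10 whose pattern lay nearest to their mean were *Rapgef3*, *Pabpc4*, *Mib1*, *Nomo1*, and *Mgst3*, with r from 0.969 to 0.977. All points share the 4 groups and their scaling, so these values describe the pattern and carry no test.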

How the data were processed

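Total RNA of pancreas was sequenced in 8 libraries with a directional kit and paired-end reads. Per the paper's methods, reads were filtered with fastp and mapped to GRCm38.p6 with CLC Genomics Workbench. The authors deposited RPKM values per gene, 1 file per library, and how RPKM was computed was not given in the sources used here. Library totals were worked out from low values, of which 84.5% to 85.8% were whole reads within 0.1. Reads per gene are therefore approximate.

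Libraries of a comparison were scaled by the median of ratios. Genes that reached an RPKM of 0.5 in 2 or more libraries were tested on log2(scaled RPKM + 0.1), so changes of low genes are understated, with limma 3.58.1 (intensity trend, R 4.3.3) and Benjamini-Hochberg adjustment over all genes. Genes were called at an adjusted p under 0.05 and at least 2-fold. Levels are scaled over all 8 libraries. Groups of 2 libraries allow no exact permutation p under 0.33, so none is given. The procedure was tested on simulated data. Symbols were matched to GENCODE vM21 for 95.1% of genes. The genes, lists, and motifs were chosen with earlier results of these data known. All 10 genes are described, and of each list up to 3 called genes per direction with the largest change. *Gata4* was named beyond this rule, after its values were seen. *Vamp7*, *Stx4*, and *Itgam* were not found by symbol. Alternatives were other scalings, filters, pseudocounts, and thresholds, no trend, all libraries in 1 model, a replicate block, and each library left out in turn, where the lone library of a group is assumed to vary like the other groups.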

Additional observations from a re-analysis of the deposited data

Results flagged for a closer look

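The change of *Tmed6* with FAEE-SAP differed between the genotypes by the interaction term, with a difference of 1.91 on the log2 scale (cKO minus WT, limma adjusted p = 0.0413). Scaled RPKM of *Tmed6* was lower with FAEE-SAP in both libraries of each genotype. The adjusted p was over 0.05 whenever 1 of the 8 libraries was left out, without a filter, with a pseudocount of 0.01, without the intensity trend, and with a replicate block.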

How the results depend on the processing

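Fold changes of all 10 genes depended on the scaling, and 2 libraries per group limit every test. Among the 10 genes, 4 were called with FAEE-SAP in WT, where 6.93% of all genes were. Of these 4, *Rab27b* passed the filter on low values through WT saline alone. With 1 library left out, log2 fold changes were −3.06 to −2.57 for *Zg16*, −2.01 to −1.64 for *Sycn*, and −2.92 to −2.80 for *Tmed6*. *Rab27b* passed the filter in 2 of these fits, at −2.74 and −2.40. As deposited there were 7, *Zg16*, *Tmed6*, and *Rab27b* lower and *Cuzd1*, *Vamp8*, *Stx3*, and *Stxbp2* higher. Of all genes, 66.7% were called as deposited, 0.789% as lower and 65.9% as higher. For cKO against WT with FAEE-SAP the main count was 2 (1.27% of all genes), with 5 as deposited (40.2%) and 0 without a filter, where no other gene was called either. At an unadjusted limma p under 0.05 with no fold minimum there were 4 of the 9 genes tested and 2148 of 11008 genes. With 1 library left out, the log2 fold change ran from 2.16 to 2.63 for *Zg16* and from 2.07 to 2.14 for *Tmed6*. For the interaction the main count was 1, with 4 as deposited (7.11% of all genes), 2 with quantile normalization, an RPKM minimum of 2, or a pseudocount of 1, 3 at an unadjusted p under 0.05 and at least 2-fold, and 0 without a filter, with a pseudocount of 0.01, without the intensity trend, or without any 1 library. In cKO with FAEE-SAP and in the saline groups the count was 0 under every alternative. The cause was not tested. Interaction counts under alternatives other than the values as deposited have no share of all genes beside them. The same holds for the counts with a replicate block in the next paragraph. Whether these counts were particular to the granule genes can therefore not be read from them.

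The labels do not tie replicate numbers to mice or batches, and whether a batch was shared is not known. Deviations of same-numbered libraries correlated at −0.52 to −0.17 in the 3 pairs of groups with WT saline and at 0.18 to 0.40 in the other 3 pairs, over 11133 genes, so the numbers were not taken as a pairing. With a replicate block the count was 0 for the interaction and 3 for cKO against WT with FAEE-SAP, where *Sycn* was added (limma adjusted p = 0.0466). With the WT saline numbers exchanged, a choice made after seeing the data, it was 2 for the interaction, *Zg16* and *Tmed6*.

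Of the 10 genes, none changed sign in a comparison in which it had been called. As deposited, the log2 fold change with FAEE-SAP in WT was 0.51 for *Gp2*, 1.19 for *Cuzd1*, and 0.99 for *Rab3d*. In cKO it was 0.26 for *Gp2*, 0.16 for *Cuzd1*, 0.25 for *Rab3d*, and 0.46 for *Vamp8*. For cKO against WT with saline it was −0.13 for *Gp2*, −0.24 for *Rab3d*, −0.10 for *Vamp8*, −0.19 for *Stx3*, and −0.094 for *Tmed6*. With FAEE-SAP it was −0.38 for *Gp2*. The interaction was −0.26 for *Gp2* and −0.64 for *Stxbp2*. With quantile normalization the values were 0.13 for *Gp2* and 0.15 for *Cuzd1* with FAEE-SAP in WT, −0.10 for *Gp2* and −0.056 for *Rab3d* between the saline groups, −0.53 for *Gp2* between the FAEE-SAP groups, and −0.50 for *Gp2* in the interaction. With an RPKM minimum of 2, *Rab3d* was at −0.00081 between the saline groups, 0.041 between the FAEE-SAP groups, and 0.011 in the interaction, and *Cuzd1* was at 0.022 between the FAEE-SAP groups. Without a filter the interaction of *Stxbp2* was −0.047.

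With 1 library left out, ranges over the alternatives crossed 0 with FAEE-SAP in WT for *Cuzd1* (−0.42 to 0.15) and *Stxbp2* (−0.065 to 0.29). In cKO they did for *Gp2* (−0.69 to 0.035), *Rab27b* (−1.44 to 0.046), *Vamp8* (−0.31 to 0.070), and *Stxbp2* (−0.0094 to 0.27). Between the saline groups they did for *Gp2* (−0.10 to 0.39), *Rab3d* (−0.036 to 0.095), *Rab27b* (−1.0 to 0.75), and *Stx3* (−0.36 to 0.14). Between the FAEE-SAP groups they did for *Cuzd1* (−0.29 to 0.22), *Rab3d* (−0.21 to 0.18), and *Stxbp2* (−0.32 to 0.030), and in the interaction for *Rab3d* (−0.25 to 0.11) and *Stxbp2* (−0.15 to 0.20).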
